A study of Mus musculus with 16 samples.

Results

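The 9 genes described here were Socs1, Socs2, Socs3, Cish, Stat3, Stat4, Stat5a, Stat5b and Stat6, that is 4 inducible inhibitors of cytokine signalling and 5 of the transcription factors they restrain. They were picked by gene name from the probe sets (groups of array probes read together) that carried exactly 1 gene symbol. These 9 genes had 12 of the 23521 such probe sets and made up 9 of the 22180 genes measured. Socs2, Socs3 and Cish had a pair of probe sets each, and the higher of the pair, averaged over the 16 arrays, was used. RNA came from CD8 T cells of the spleens of female C56BL/6 mice, as the strain is spelled in the labels. Bone marrow chimeras whose marrow was Il4i1 KO or WT had all received chronic lymphocytic leukaemia cells of Eµ-TCL1 mice, and cells were sorted 5 weeks later. Il4i1 encodes a secreted enzyme that breaks down amino acids, and in Eµ-TCL1 mice a B cell enhancer drives the TCL1 oncogene. The groups, of 4 arrays each, were effector KO and effector WT (CD44+CD127-) and memory KO and memory WT (CD44high CD127high).

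No group was free of leukaemia. The labels give neither the age of the mice, nor how the recipients were prepared, nor the Il4i1 genotype of the transferred leukaemia cells. In such chimeras cells of the recipient that are not made from donor marrow do not carry the marrow's genotype. The labels number the samples 1 to 4 but do not say that each came from its own animal, so a p-value here measures the spread between samples, which may in part be technical.

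Cytokine receptors pass their signal through Janus kinases to STAT proteins, which are phosphorylated, pair up, enter the nucleus and bind DNA. In CD8 T cells, STAT5A and STAT5B act downstream of IL-2, IL-7 and IL-15, STAT4 of IL-12, STAT6 of IL-4, and STAT3 of IL-6, IL-10 and IL-21. SOCS proteins and CIS, the product of Cish, are induced by these signals and switch them off by blocking the kinases or receptors or by marking them for destruction. These mRNA levels do not measure phosphorylated STAT protein, the active form.

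The control regions of 3 of the inhibitor genes are shown because they hold short motifs of the kind STAT complexes bind. The sequences are those of RefSeq for GRCm38.p6, read 5′ to 3′ on the gene's own strand. The capitals in Socs1 mark 2 overlapping copies of GAAANNGAAA, a repeat of the type found in interferon response elements, whose first letters lie 83 and 77 bases before the transcript start. The capitals in Socs3 mark a match to TTCNNNGAA, the core bound by STAT dimers, starting 154 bases before the transcript start. The capitals in Cish mark 2 matches to the same core, the first letters of which are bases 1 and 12 of the transcript.
Socs1 promoter, chr16:10785537-10785786, minus strand: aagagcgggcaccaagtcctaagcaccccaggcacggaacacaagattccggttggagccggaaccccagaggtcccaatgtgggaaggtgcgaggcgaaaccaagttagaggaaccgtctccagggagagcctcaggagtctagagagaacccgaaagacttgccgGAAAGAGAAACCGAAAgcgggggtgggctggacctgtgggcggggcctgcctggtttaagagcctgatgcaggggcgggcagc
Socs3 promoter, chr11:117969367-117969616, minus strand: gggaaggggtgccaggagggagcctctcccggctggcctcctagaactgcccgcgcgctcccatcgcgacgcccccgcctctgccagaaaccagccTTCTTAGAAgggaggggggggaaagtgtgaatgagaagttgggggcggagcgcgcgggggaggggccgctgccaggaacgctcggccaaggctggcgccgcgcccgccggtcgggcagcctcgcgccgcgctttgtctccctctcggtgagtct
Cish transcript start, chr9:107296654-107296683, plus strand: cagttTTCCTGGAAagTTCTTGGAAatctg

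Motifs were searched on both strands in windows of 250 bases before to 50 bases after each annotated transcript start, and 8 of the 9 genes had such a window, Socs2 being the exception. TTCNNNGAA, which reads the same on both strands, was present in 8.3% of all 32851 windows and at least 2 times, as in Cish, in 0.457% of them. GAAANNGAAA was present in 3.44% of all windows and at least 2 times, as in Socs1, in 0.225%. Stat4 held 1 copy of that repeat, GAAAGTGAAA, 97 bases before one of its starts. TTCNNNNGAA, the spacing preferred by STAT6, was in 6.95% of all windows and in none of those of these genes. Copies that overlap were counted separately, and a match describes letters only, not binding. In the annotation Stat5b, Stat5a and Stat3 lie next to each other in this order with 0 genes between them, and none of the 9 genes is on the chromosome that carries Il4i1.

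The values are log2 expression levels, which can be compared for 1 probe set across arrays but not between genes. Median levels of the 16 arrays lay between 4.12 and 4.22, and the 9 probe sets used were above the median of their own array on all 16 arrays. Effector KO 4 stood apart, with correlations of 0.965 to 0.974 with the other 15 arrays across genes, against 0.971 to 0.994 for all other pairs. The 5 CD8 and CD3 genes checked averaged 11.32 to 11.54 on every array, and Il7r, which encodes CD127, averaged 5.69 and 4.04 in effector KO and effector WT cells against 11.08 and 10.71 in memory KO and memory WT cells. Il4i1 shares its only probe set with Nup62 and Il4i1b, and that probe set averaged 5.90 ± 0.11 in effector KO, 5.95 ± 0.06 in effector WT, 5.67 ± 0.14 in memory KO and 5.99 ± 0.06 in memory WT cells (SD, n = 4 each), so it does not check the genotype labels. No batch or background level was given with the values, and the number of arrays limits the precision.

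**Figure D1:**
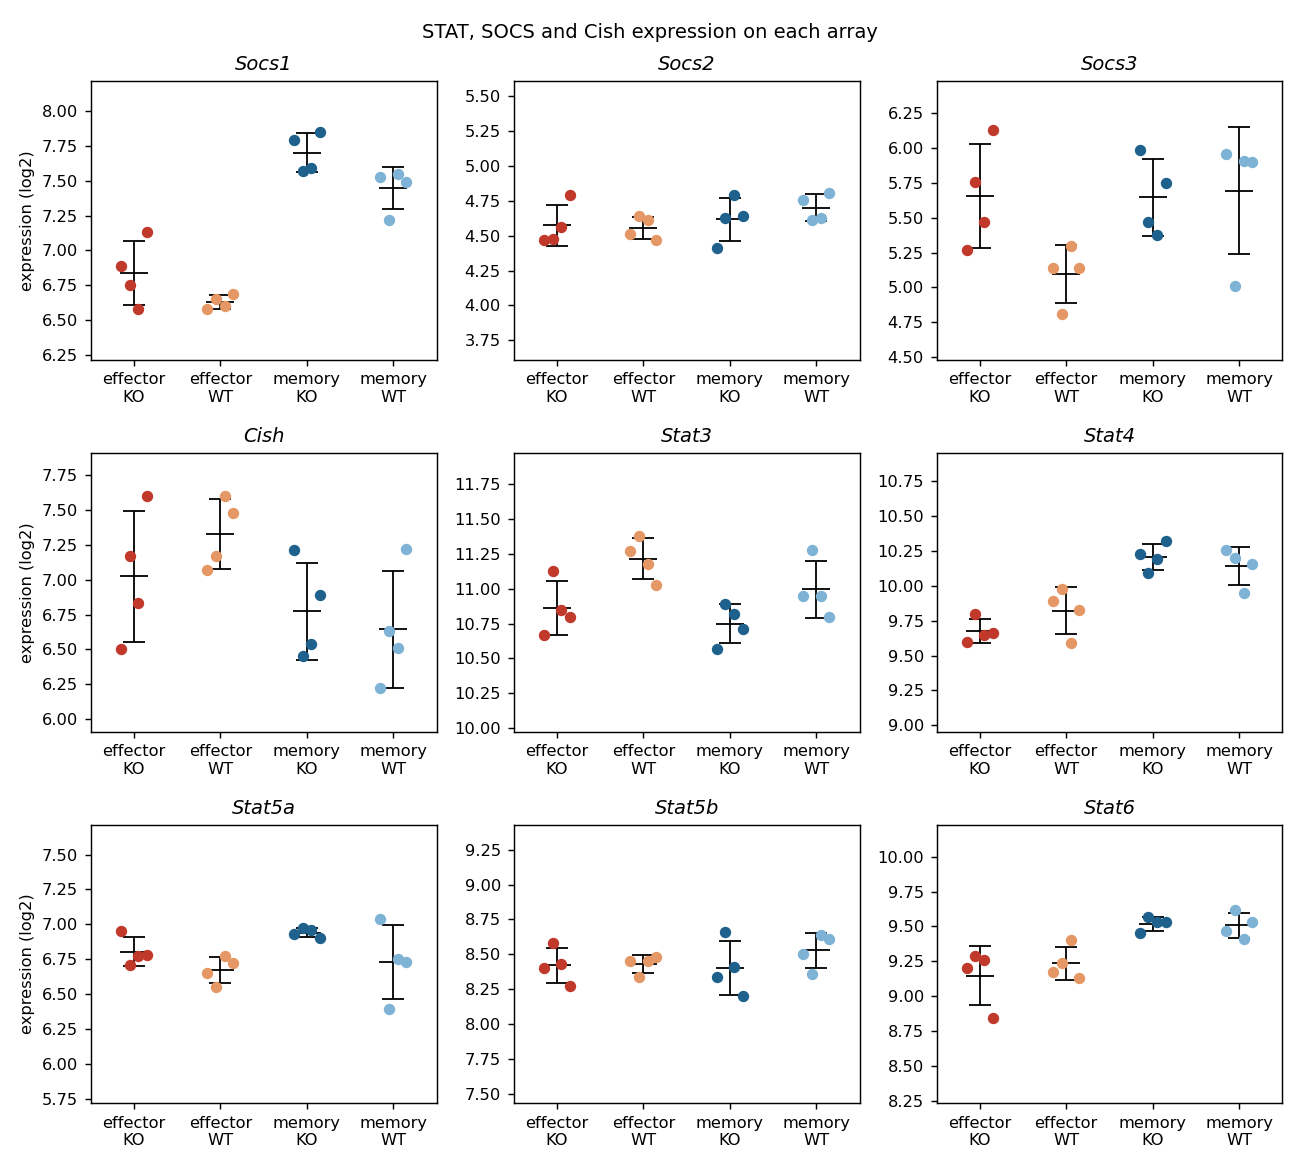
Log2 expression (y axis) of each of the 9 genes on each of the 16 arrays, with groups along the x axis; points are arrays, and the black dash and bar are the group mean and SD of 4 arrays. Socs1 separates effector from memory arrays without overlap, and so, more narrowly, does Stat6, while Socs2, Stat5a and Stat5b differ little between groups.

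Socs1, Stat4 and Stat6 were lower in effector than in memory cells, and no other of the 9 genes passed between the subsets with all 16 arrays weighted equally. In KO cells these 3 passed, that is, had an adjusted p under 0.05 over all genes in limma with Benjamini-Hochberg adjustment, while in WT cells Socs1 alone did. The share of all genes passing was 7.43% in KO cells (1649 genes) and 3.22% in WT cells (715 genes). Effector and memory arrays did not overlap for 3 of the 9 genes in KO cells, against 10.2% of all genes, and for 2 of the 9 in WT cells, against 13.2% of all genes. The median log2 difference, effector minus memory, was -0.04 over the 9 genes and 0.01 over all genes in KO cells, and -0.14 and 0.01 in WT cells. Averaged over both genotypes, a comparison added after the values were seen, 3 of the 9 passed, all lower, against 12.2% of all genes.

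**Figure D2:**
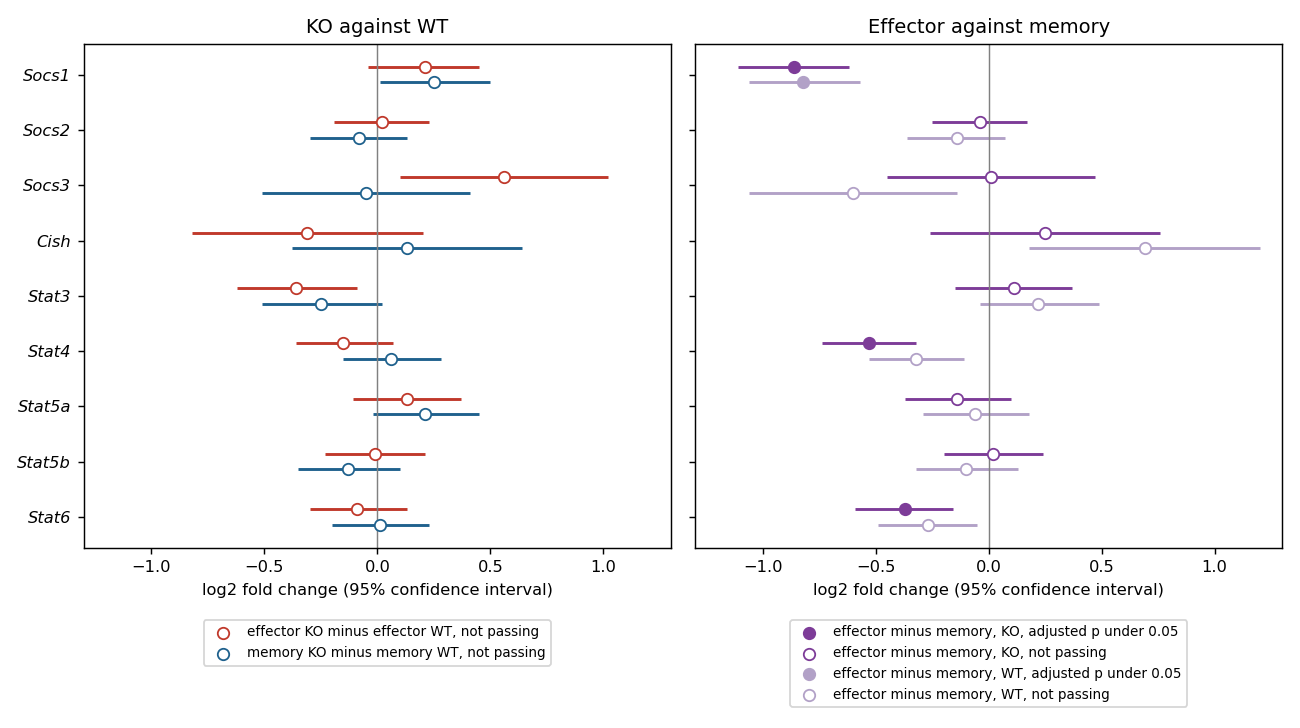
Log2 fold change (x axis) with its 95% confidence interval for each of the 9 genes, KO minus WT at left and effector minus memory at right; filled points have an adjusted p under 0.05 over all genes and open points do not. The filled points are Socs1 in both genotypes and Stat4 and Stat6 in KO cells, all to the left of 0, and no KO against WT point is filled.

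Among the inhibitors, Socs1, which binds Janus kinases directly and restrains interferon and common gamma chain cytokine signals in T cells, showed the largest difference between the subsets. Its log2 level was 6.89, 6.75, 6.58 and 7.13 on the effector KO arrays 1 to 4 and 6.58, 6.65, 6.60 and 6.69 on the effector WT arrays. It was 7.79, 7.57, 7.59 and 7.85 on the memory KO arrays and 7.53, 7.22, 7.55 and 7.49 on the memory WT arrays. All 8 effector arrays, at 6.58 to 7.13, lay below all 8 memory arrays, at 7.22 to 7.85, and the memory KO arrays all lay above the memory WT arrays. Effector KO and effector WT arrays overlapped, with effector KO 4 the highest of the effector arrays. Effector minus memory was -0.86 ± 0.12 in KO cells (log2 ± SE, adjusted p = 0.000307 in limma), that is 1.82-fold lower in effector cells. In WT cells it was -0.82 ± 0.12 (adjusted p = 0.000741 in limma), or 1.76-fold lower. Without effector KO 4 the difference in KO cells was -0.96 (adjusted p = 8.29e-05). In bulk RNA of sorted cells, fewer cells that express a gene and less of its RNA per cell cannot be told apart.

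Among all genes, 2.65% separated the 8 effector from the 8 memory arrays without overlap, and among the 9 genes this held for Socs1 and Stat6. KO minus WT for Socs1 was 0.21 ± 0.12 in effector cells (95% interval -0.04 to 0.45, adjusted p = 0.6 in limma), and 0.11 without effector KO 4 (adjusted p = 0.916). In memory cells the difference was 0.25 ± 0.12 (95% interval 0.01 to 0.50, adjusted p = 0.429 in limma), which did not pass although the groups did not overlap. The interaction of genotype and subset, which asks whether the KO against WT difference was the same in both subsets, was -0.05 ± 0.16 (adjusted p = 0.979 in limma).

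Socs3, the inhibitor that acts at the gp130 chain of the IL-6 receptor, had its lowest mean in effector WT cells with the probe set used. None of its differences passed with all 16 arrays weighted equally. Its level was 5.27, 5.76, 5.47 and 6.13 on the effector KO arrays and 5.14, 4.81, 5.30 and 5.14 on the effector WT arrays. It was 5.99, 5.47, 5.38 and 5.75 on the memory KO arrays and 5.96, 5.01, 5.91 and 5.90 on the memory WT arrays. Effector WT arrays lay below all memory KO arrays, and 3 of the 4 memory WT arrays lay together while memory WT 2 was far below them. Effector KO minus effector WT was 0.56 ± 0.22 (95% interval 0.10 to 1.02, adjusted p = 0.484 in limma) and 0.40 without effector KO 4, the highest of its group (adjusted p = 0.843). Effector minus memory was -0.60 ± 0.22 in WT cells (adjusted p = 0.188 in limma) and 0.01 ± 0.22 in KO cells (adjusted p = 0.99 in limma). Without memory WT 2 the WT value was -0.83 and passed (adjusted p = 0.0243 in limma), and the value averaged over both genotypes, -0.29 with an adjusted p of 0.277, then was -0.41 and passed (adjusted p = 0.0488). The interaction was 0.61 ± 0.31 (95% interval -0.05 to 1.26, adjusted p = 0.841 in limma). The other Socs3 probe set, which correlated with this one at 0.43 over the 16 arrays, gave 0.31 for effector KO minus effector WT (adjusted p = 0.586) and 0.03 for effector minus memory in WT cells (adjusted p = 0.976), so the subset difference was not seen with it. That probe set gave 0.29 for memory KO minus memory WT (adjusted p = 0.546 in limma) and an interaction of 0.02 (adjusted p = 0.992 in limma). Its genotype difference was thus alike in both subsets, and its means were 5.13 in memory WT and 5.16 in effector WT cells.

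Cish, whose protein is induced through STAT5 and in CD8 T cells also restrains T cell receptor signalling, had higher means in effector than in memory cells. These differences did not pass with all 16 arrays weighted equally. Its level was 6.50, 7.17, 6.83 and 7.60 on the effector KO arrays and 7.07, 7.17, 7.60 and 7.48 on the effector WT arrays. It was 7.21, 6.45, 6.54 and 6.89 on the memory KO arrays and 6.22, 6.63, 6.51 and 7.22 on the memory WT arrays. The groups overlapped, the memory WT arrays reaching from the lowest of all 16 values up to the range of the effector WT arrays. Effector minus memory was 0.69 ± 0.24 in WT cells (95% interval 0.18 to 1.20, adjusted p = 0.163 in limma) and 0.25 ± 0.24 in KO cells (adjusted p = 0.632 in limma), and neither passed. The other Cish probe set correlated with this one at 0.80 over the 16 arrays and gave 0.35 in WT cells (adjusted p = 0.529) and 0.26 in KO cells. KO minus WT was -0.31 ± 0.24 in effector cells and 0.13 ± 0.24 in memory cells, with adjusted p of 0.702 and 0.899 in limma. Without effector KO 4, the highest effector KO array, KO minus WT in effector cells was -0.50 (adjusted p = 0.809) and effector minus memory in KO cells was 0.06 (adjusted p = 0.927). Averaged over both genotypes effector minus memory was 0.47 ± 0.17 (adjusted p = 0.09 in limma), and it passed at 0.56 without effector KO 1 (adjusted p = 0.0391) or without memory WT 4 (adjusted p = 0.0331).

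Socs2, best known as a brake on growth hormone signalling, was nearly level. Group means were 4.58 ± 0.15 in effector KO, 4.56 ± 0.08 in effector WT, 4.62 ± 0.16 in memory KO and 4.70 ± 0.10 in memory WT cells (SD, n = 4 each). Its 16 values ran from 4.41 to 4.81, close to the array medians, and all groups overlapped. Effector KO minus effector WT was 0.02 ± 0.10 and memory KO minus memory WT was -0.08 ± 0.10, with adjusted p of 0.965 and 0.815 in limma. The other Socs2 probe set was above the median of its array on 0 of 16 arrays, correlated with this one at 0.29, and gave -0.65 for effector minus memory in WT cells (adjusted p = 0.157).

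Of the STATs, Stat4, which carries the IL-12 signal towards interferon gamma production, was lower in effector cells. Its level was 9.60, 9.80, 9.65 and 9.66 on the effector KO arrays and 9.89, 9.98, 9.59 and 9.83 on the effector WT arrays. It was 10.23, 10.09, 10.19 and 10.32 on the memory KO arrays and 10.26, 10.20, 9.95 and 10.16 on the memory WT arrays. In KO cells the subsets did not overlap, whereas in WT cells memory WT 3 lay among the effector WT arrays. Effector minus memory was -0.53 ± 0.10 in KO cells (adjusted p = 0.00378 in limma), or 1.45-fold lower, and the same -0.53 without effector KO 4 (adjusted p = 0.00652). In WT cells it was -0.32 ± 0.10 (adjusted p = 0.107 in limma), which did not pass. The genotypes are not shown to differ in this, since the interaction was -0.21 ± 0.14 (adjusted p = 0.856 in limma). Averaged over both genotypes the difference was -0.43 ± 0.07 (adjusted p = 0.000704 in limma), or 1.34-fold lower.

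Stat6, the mediator of IL-4 and IL-13 signals, was also lower in effector cells, by a smaller margin. Its level was 9.20, 9.29, 9.26 and 8.84 on the effector KO arrays and 9.17, 9.24, 9.40 and 9.13 on the effector WT arrays. It was 9.45, 9.57, 9.53 and 9.53 on the memory KO arrays and 9.47, 9.62, 9.41 and 9.53 on the memory WT arrays. The effector arrays, at 8.84 to 9.40, and the memory arrays, at 9.41 to 9.62, came close but did not overlap, and effector KO 4 was the lowest of all 16. Effector minus memory was -0.37 ± 0.10 in KO cells (adjusted p = 0.0356 in limma), or 1.3-fold lower, and -0.27 ± 0.10 in WT cells (adjusted p = 0.207 in limma). The call in KO cells was lost on leaving out effector KO 1 (adjusted p = 0.054), effector KO 4 (adjusted p = 0.0661, log2 difference -0.27), memory KO 2 (adjusted p = 0.0789), memory KO 3 (adjusted p = 0.0652) or memory KO 4 (adjusted p = 0.0856). Averaged over both genotypes it was -0.32 ± 0.07 (adjusted p = 0.0069 in limma), or 1.25-fold lower, and the interaction was -0.10 ± 0.15 (adjusted p = 0.931).

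Stat3, which carries the signals of IL-6, IL-10, IL-21 and IL-27, was the STAT with the widest gap between the genotypes. The gap did not pass in the fit of the 4 groups alone. Its level was 10.67, 11.13, 10.85 and 10.80 on the effector KO arrays and 11.27, 11.38, 11.18 and 11.03 on the effector WT arrays. It was 10.57, 10.89, 10.82 and 10.71 on the memory KO arrays and 10.95, 11.28, 10.95 and 10.80 on the memory WT arrays. In effector cells 3 of the 4 KO arrays lay below all WT arrays, in memory cells 2 of the 4 did, and the other KO arrays lay inside the range of the WT arrays. KO minus WT was -0.36 ± 0.12 in effector cells (95% interval -0.62 to -0.09, adjusted p = 0.462 in limma) and -0.25 ± 0.12 in memory cells (95% interval -0.51 to 0.02, adjusted p = 0.47 in limma). Without memory WT 2 the memory value was -0.15 (adjusted p = 0.762). Averaged over both subsets KO minus WT was -0.30 ± 0.09 (adjusted p = 0.138 in limma). That fit treated effector and memory arrays as independent, and if they shared animals this SE may be too small. The averaged difference passed under 1 alternative, the replicate number as a block (adjusted p = 0.0335 in limma), though the labels do not say that equal numbers pair arrays. Effector minus memory was 0.11 ± 0.12 in KO cells and 0.22 ± 0.12 in WT cells, with adjusted p of 0.686 and 0.464 in limma.

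Stat5a and Stat5b, the neighbouring genes for the closely related STAT5 proteins, passed in no comparison. Stat5a averaged 6.80 ± 0.10 in effector KO, 6.67 ± 0.09 in effector WT, 6.94 ± 0.03 in memory KO and 6.73 ± 0.26 in memory WT cells (SD, n = 4 each). The memory WT arrays of Stat5a ran from 6.39 to 7.04, a range that contained all 4 memory KO arrays. Stat5b averaged 8.42 ± 0.12 in effector KO, 8.43 ± 0.06 in effector WT, 8.40 ± 0.19 in memory KO and 8.53 ± 0.13 in memory WT cells (SD, n = 4 each), and all its groups overlapped. KO minus WT was 0.13 ± 0.11 in effector and 0.21 ± 0.11 in memory cells for Stat5a, with adjusted p of 0.725 and 0.499 in limma. The memory value was 0.10 without memory WT 2 (adjusted p = 0.814). Averaged over both subsets, KO minus WT for Stat5a was 0.17 ± 0.08 (95% interval 0 to 0.34, adjusted p = 0.348 in limma). For Stat5b KO minus WT was -0.01 ± 0.10 in effector cells and -0.13 ± 0.10 in memory cells, with adjusted p of 0.985 and 0.703 in limma.

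Between KO and WT cells, none of the 9 genes passed in limma in effector cells, where 0.0541% of all genes passed (12 genes). An unadjusted p under 0.05 was seen for 2 of the 9 (Socs3, higher, and Stat3, lower) and for 9.32% of all genes. The effector KO and effector WT arrays overlapped for all 9, against 4.65% of all genes without overlap. In memory cells 0 of the 9 passed in limma, against 0.113% of all genes (25 genes), and 1 had an unadjusted p under 0.05 (Socs1, higher), against 11.3% of all genes. Memory KO and memory WT arrays did not overlap for 1 of the 9, Socs1, against 6.49% of all genes. The interaction was passed by 0 of the 9 genes and by 0% of all genes in limma, with 0 of the 9 and 5.84% of all genes (1296) at an unadjusted p under 0.05. For KO against WT averaged over both subsets 0 of the 9 passed in limma, against 0.194% of all genes (43 genes), and 3 had an unadjusted p under 0.05 (Stat3, lower, Socs1 and Stat5a, higher), against 13.9% of all genes. The median log2 difference, KO minus WT, was -0.01 over the 9 genes and 0.01 over all genes in effector cells, and 0.01 and 0.02 in memory cells.

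Levels of other cells' genes also differed between the subsets. Of 10 B cell and leukaemia marker genes, 9 were measured, and their mean log2 level was 3.83 to 4.14 on effector KO, 3.84 to 3.97 on effector WT, 4.39 to 5.00 on memory KO and 4.97 to 5.88 on memory WT arrays. All 9 were lower in effector than in memory cells, with 2 passing in KO cells and 8 in WT cells, and all 9 were lower in memory KO than in memory WT cells, with 1 passing. Cr2, a complement receptor of B cells, was below the array median on all 16 arrays. Over the 16 arrays, as a description, levels correlated with the mean of this list at 0.68 for Socs1, 0.70 for Stat4, 0.61 for Stat6 and -0.65 for Cish. After group means were removed these were -0.05, 0.18, -0.22 and -0.50 in the same order of genes. Mean levels of 10 myeloid markers were 4.79 to 4.96 on effector KO, 4.77 to 4.90 on effector WT, 4.71 to 5.68 on memory KO and 5.02 to 5.54 on memory WT arrays. For 3 measured NK markers they were 5.21 to 5.90, 5.00 to 5.50, 5.64 to 6.50 and 5.43 to 5.80 in the same order of groups. The part of these cells in the differences of Socs1, Stat4 and Stat6 was not tested.

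Socs1 was higher and Stat3 lower on arrays with a higher interferon response. A list of 10 type I interferon response genes averaged 6.90, 6.57, 6.57 and 7.31 on effector KO arrays, 6.03, 6.09, 6.39 and 6.52 on effector WT arrays, 7.85, 7.30, 7.14 and 7.89 on memory KO arrays and 6.78, 6.62, 6.94 and 7.22 on memory WT arrays. KO arrays lay above WT arrays in effector cells and nearly so in memory cells. All 10 genes of the list were higher in KO than in WT cells in each subset, with medians of 0.67 in effector and 0.64 in memory cells, but 0 of 10 passed in limma in either, with 6 and 7 at an unadjusted p under 0.05. Between subsets 9 of the 10 were lower in effector than in memory cells in each genotype, with 4 passing in KO and 3 in WT cells. Those passing included Cmpk2, Usp18 and Rtp4, at -1.62, -1.46 and -1.16 in KO cells and -1.29, -1.37 and -0.82 in WT cells.

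After each group's mean was taken from its arrays, the level of Socs1 correlated with that of the interferon list at 0.82 over the 16 arrays (Spearman's rho 0.83). The correlation was 0.76 without effector KO 4 and memory KO 3, the 2 arrays whose interferon list level lay farthest from their group mean. Within the 8 effector arrays it was 0.84 and within the 8 memory arrays 0.80. Of 22170 genes, 0.374% had a correlation at least as high as Socs1. For Stat3 it was -0.73 (rho -0.77), -0.79 without the same 2 arrays, -0.66 within the effector and -0.79 within the memory arrays, and 2.53% of genes were at least as low. Socs3 stood at 0.64, with 0.55 within the effector and 0.71 within the memory arrays, and Cish at 0.69, with 0.61 and 0.77. Of all genes, 3.27% were at least as high as Socs3 and 1.97% at least as high as Cish. Without removal of group means Cish gave -0.13 over the 16 arrays. The other 5 genes lay between -0.52 (Stat6) and 0.19 (Stat5a). Both values of a point come from the same array, RNA and cells, so these correlations are a description and carry no test. The labels do not say whether effector and memory arrays share animals, so the values within the subsets may not be independent. Memory KO 1 and 4 were the higher memory KO arrays for Socs1, Socs3, Cish and the interferon list, and effector KO 4 was the highest effector KO array for these and for Socs2.

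**Figure D3:**
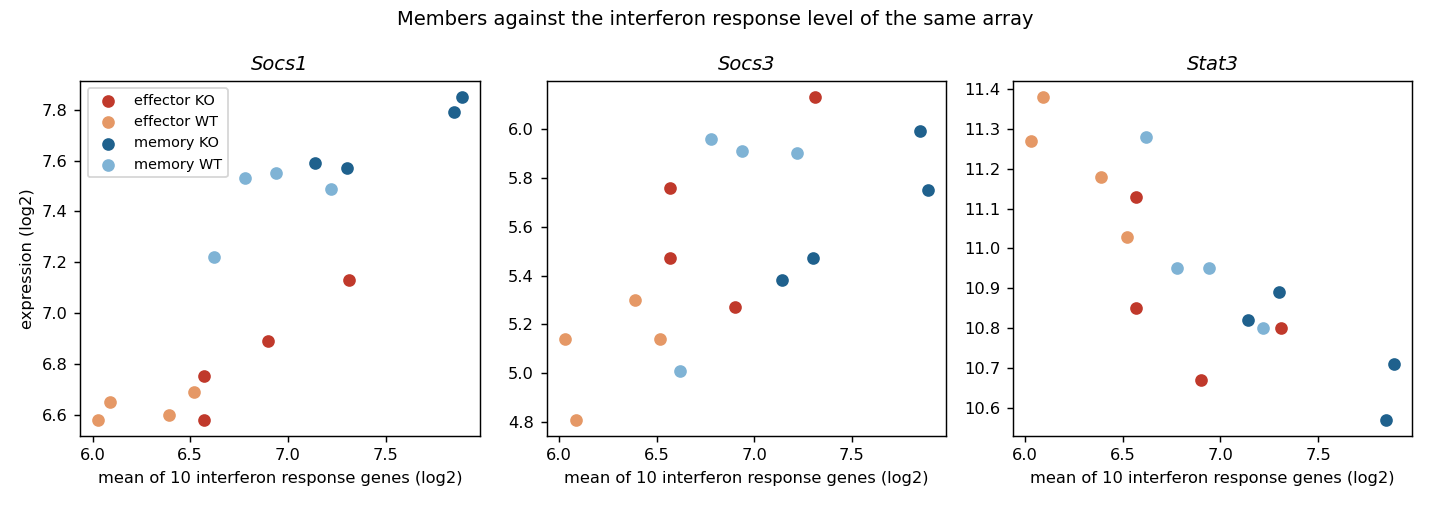
Log2 expression of Socs1, Socs3 and Stat3 (y axes) against the mean log2 level of 10 interferon response genes (x axes), each point 1 of the 16 arrays, coloured by group. Socs1 climbs with the interferon level along separate effector and memory bands, Socs3 climbs with more scatter, and Stat3 declines as the interferon level increases.

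Upstream of the STATs, many receptor chains changed between the subsets. Of 19 chains listed, 18 were measured, and 3 passed as higher and 9 as lower in effector than in memory KO cells, with a list median of -0.22 against 0.01 for all genes. In WT cells 1 passed as higher and 9 as lower, with a median of -0.44. Il7r, set by the CD127 gate, differed by -5.39 in KO and -6.66 in WT cells (log2). Il6ra, the IL-6 receptor chain upstream of STAT3, differed by -3.97 ± 0.31 in KO cells (adjusted p = 3.35e-06 in limma) and by -3.40 in WT cells, both passing. Il12rb2, the signalling chain of the IL-12 receptor upstream of STAT4, differed by -2.37 ± 0.24 in KO cells (adjusted p = 2.94e-05 in limma) and by -2.56 in WT cells, both passing. Its partner Il12rb1 was higher, by 1.09 ± 0.13 in KO cells (adjusted p = 0.000115 in limma) and 0.91 in WT cells, where it was the only chain to pass as higher. Il4ra, the IL-4 receptor chain upstream of STAT6, differed by -1.60 ± 0.16 in KO cells (adjusted p = 1.96e-05 in limma) and -0.99 in WT cells, both passing. Of these chains of the IL-12 and IL-4 receptors, Il12rb2 and Il4ra were lower in the subset in which Stat4 and Stat6 were lower, and Il12rb1 was higher there. Between the genotypes 1 chain passed in effector cells, Il7r at 1.65 ± 0.25 (adjusted p = 0.0183 in limma), itself a gate gene. That call was lost without effector KO 4 or without effector WT 1, 2 or 3. In memory cells 0 of the 18 passed in limma, with 6 at an unadjusted p under 0.05.

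**Figure D4:**
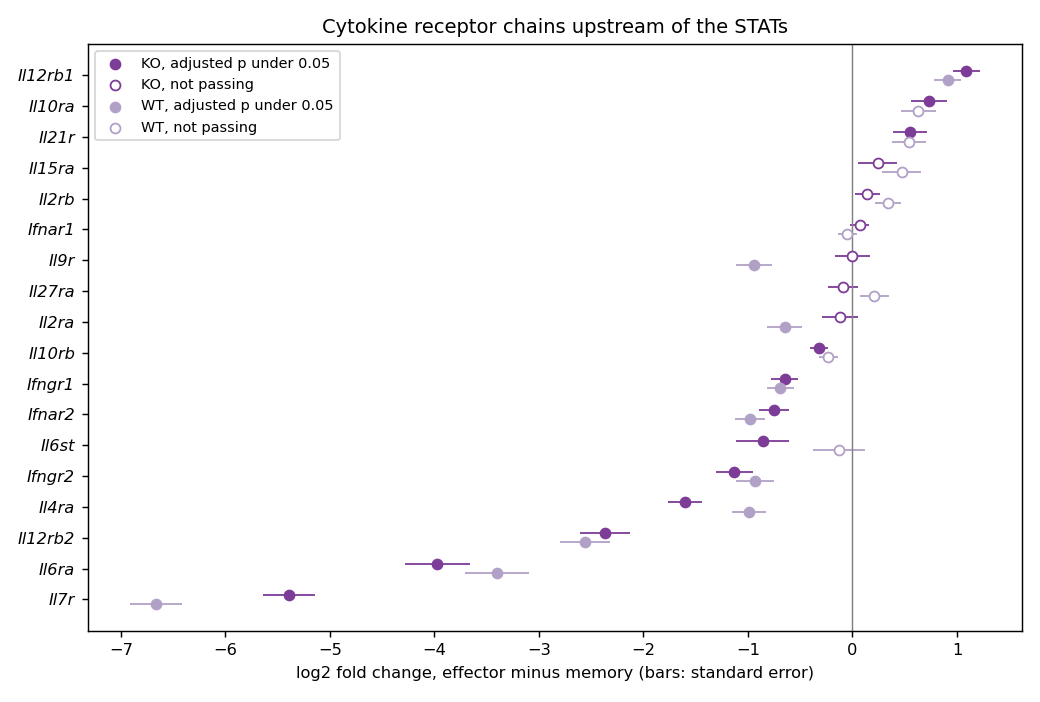
Log2 fold change, effector minus memory (x axis, bars are standard errors), of the 18 measured cytokine receptor chains (y axis) in KO and WT cells; filled points have an adjusted p under 0.05 over all genes. Il7r and Il6ra lie farthest to the left, Il12rb2 and Il4ra follow in KO cells, and Il12rb1 lies farthest to the right.

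The kinases and other brakes changed less. Of 4 Janus kinases 3 were measured, and 0 passed in limma in the 4 comparisons within a subset or genotype, where at most 2 had an unadjusted p under 0.05. Tyk2, the kinase of interferon and IL-12 receptors, was nearest, at 0.42 for effector minus memory in KO cells (adjusted p = 0.053 in limma) and 0.46 in WT cells (adjusted p = 0.0596), and it passed averaged over both genotypes at 0.44 ± 0.09 (adjusted p = 0.00334). Socs4, Socs5, Socs6 and Socs7, the remaining SOCS genes, passed in none of the 7 comparisons in limma, with at most 1 of the 4 at an unadjusted p under 0.05 in any of them. Of 9 PIAS proteins and phosphatases, Ptpn6, which encodes the phosphatase SHP-1, was lower in effector than in memory cells, at -0.94 ± 0.16 in KO (adjusted p = 0.00154 in limma) and -0.95 in WT cells (adjusted p = 0.0023). Sh2b3, an adaptor that restrains JAK2, was lower too, at -0.81 in KO (adjusted p = 0.00656) and -0.86 in WT cells (adjusted p = 0.00736), and Ptpn1, a phosphatase of JAK2 and TYK2, was higher in effector than in memory KO cells, at 0.42 (adjusted p = 0.0147). None of the 9 passed between the genotypes in limma, with 0 at an unadjusted p under 0.05 in effector and 2 in memory cells. Stat2 and Irf9, which act downstream of the type I interferon receptor, passed in none of the comparisons between genotypes, Irf9 coming nearest at 0.44 ± 0.13 in memory cells (adjusted p = 0.223 in limma). Irf9 was lower in effector than in memory cells averaged over both genotypes, at -0.33 ± 0.09 (adjusted p = 0.0315 in limma).

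Known target genes of the STATs passed in both directions between effector and memory cells, as did all genes, of which 696 passed as higher and 953 as lower in KO cells and 204 and 511 in WT cells. Of 8 STAT4 targets 1 passed as higher and 4 as lower in KO cells (median -0.86), and 0 as higher and 4 as lower in WT cells (median -1.10). The 4 lower ones were Il12rb2, Il18r1, Map3k8 and Tbx21 in each genotype, and the higher one was Ifng, the interferon gamma gene, at 1.72 (adjusted p = 0.000354 in limma). Of 14 STAT5 targets 2 passed as higher (Gzmb and Dusp5) and 5 as lower (Bcl2, Bcl2l1, Myc, Pim2 and Ccnd2) in KO cells, with a median of -0.31, and 1 as higher (Id2) and 3 as lower (Bcl2, Pim2 and Il2ra) in WT cells, with a median of -0.19. Bcl2, which protects T cells from death, differed by -1.49 ± 0.20 in KO cells (adjusted p = 0.000338 in limma) and -1.28 in WT cells. Of 10 STAT3 targets Prdm1, the gene of the effector regulator BLIMP-1, was higher by 1.50 in KO (adjusted p = 0.000278 in limma) and 0.79 in WT cells (adjusted p = 0.0392), and in KO cells Batf was also higher and Myc lower. Between the genotypes 0 of the STAT3 and STAT5 targets passed in either subset in limma. At an unadjusted p under 0.05 were 3 of the STAT3 targets in each subset, and 1 of the STAT5 targets in effector and 6 in memory cells. Of the STAT4 targets 1 passed, Ifng at -1.34 ± 0.24 in memory KO against memory WT cells (adjusted p = 0.0404 in limma). None of the list genes passed in memory cells without effector KO 1 or 3, any effector WT array, memory KO 1 or 4, or memory WT 1, 2 or 3, so that call did not hold there. Many of these genes are also set by other signals, and some were on 2 lists.

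The genes whose levels were most like each of the 9 were sought among 11401 genes by Pearson's correlation over the 16 arrays, which share the subset difference. Socs1 was closest to Pik3ip1 (0.99), Slco3a1 (0.98) and Treml2 (0.97), and after group means were removed these gave 0.86, 0.92 and 0.77. Stat6 was closest to Hsd17b11 (0.96), Rpsa (0.94) and the gate gene Cd44 (0.92), with 0.88, 0.80 and 0.79 after removal of group means. Stat3 was closest to Prr5l (0.95), Kctd17 (0.94) and Fry (0.93), with 0.88, 0.90 and 0.86 after removal. Stat4 was closest to Itgb1 (0.94, then 0.66). The highest values for Socs2 (Cldn11, 0.80), Cish (Acox3, 0.84), Socs3 (Bcdin3d, 0.87), Stat5a (Srp68, 0.87) and Stat5b (Il1rap, 0.90) were lower than these. Among the 9 themselves, Socs1 and Stat4 correlated at 0.79 over the arrays but at 0.03 within groups, so their likeness was that of the subsets. Socs1 and Socs3 correlated at 0.70 within groups. Socs1 and Stat6, both higher in memory cells, correlated at 0.60 over the arrays and at -0.74 within groups. Effector KO 4, the highest effector array for Socs1 (7.13) and the lowest of all 16 for Stat6 (8.84), contributed to the latter value. That value was not computed without effector KO 4.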

How the data were processed

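Biotin-labelled cDNA made with the Affymetrix GeneChip WT Pico kit from 1 ng of total RNA was hybridised to 16 arrays, per the labels' protocols. The values are the authors' deposited expression table, taken as log2 from their range of 0.7365 to 14.0453. How they were normalized, their log base and the genome build were not stated in the labels or files, and detection calls and scanner files were not analysed here. Array medians agreed to within 4.12 to 4.22, so no further scaling was applied. Of 41345 probe sets 23521 had exactly 1 symbol in the platform annotation, 1814 had several and were left out, and 16010 are unnamed here. Each gene took its probe set with the highest mean, which gave 22180 genes.

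Differences were tested with limma 3.58.1 in R 4.3.3 (lmFit, contrasts.fit, eBayes) on all 16 arrays with a mean for each of the 4 groups (12 residual degrees of freedom, prior degrees of freedom 4.23). Tests were two-sided, Benjamini-Hochberg adjustment ran over all genes, and an adjusted p under 0.05 passed. The script was tested on simulated data with known changes. Groups came from the sample titles. Effector against memory averaged over both genotypes was added after the values were seen. Alternatives were other scalings, probe set rules and filters, array weights, the replicate number as a block, fits of single comparisons, and each array left out in turn.

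The 9 genes and all gene lists were chosen with earlier results of these data known. The text names the 9 genes, gate and identity genes, up to 3 genes of each list with the smallest p in a comparison, and the genes most like each of the 9. Il12rb1, Map3k8, Tbx21, Dusp5, Id2, Ccnd2, Il2ra and other list genes named to account for a small count were chosen after their values were seen. Promoter sequences are from RefSeq (GRCm38.p6), which had none for Socs2 in the table used here. Jak3 and Il2rg were not analysed here.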

Additional observations from a re-analysis of the deposited data

Results flagged for a closer look

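In 2 of the 36 gene and group combinations, 1 array stood apart from the other 3 by more than Dixon's 95% critical value, and chance alone flags about 1 in 20 groups. Both were memory WT 2. Its Socs1 level was 7.22, against 7.49 to 7.55 on the other memory WT arrays, and its Socs3 level was 5.01, against 5.90 to 5.96. The interferon response list was also lowest on that array among the memory WT arrays, at 6.62. None of the 9 genes passed the interaction test. In simulated data that test recovered 7.5% of log2 changes of 0.5 and 67.2% of log2 changes of 1, so smaller differences could be missed.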

How the results depend on the processing

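No result changed direction while passing under any of up to 25 alternatives per comparison. Socs1 passed for effector against memory under all of them, at -0.97 to -0.78 in KO cells and -0.89 to -0.78 in WT cells (log2). Stat4 passed in KO cells under all of them (adjusted p 0.00103 to 0.0261 in limma). Stat6 in KO cells kept its call in 16 of 25 alternatives (log2 -0.42 to -0.37) and lost it in 9 (-0.39 to -0.27). Besides the omission of single arrays, given with its values, it was lost with array weights (adjusted p = 0.0701), only the 8 arrays compared (0.157), all probe sets (0.0585) and a replicate block by genotype and number (0.0673). Averaged over both genotypes, Stat4 and Stat6 passed under every alternative run. With array weights, which gave effector KO 4 a weight of 0.23, 3 of the 9 genes passed for effector against memory in WT cells, Socs1, Socs3 (adjusted p = 0.0264) and Cish (0.0374), and 1 or 2 passed with an array left out.

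Between subsets, deviations of same-numbered arrays correlated at 0.02 to 0.15 in KO cells and 0.09 to 0.24 in WT cells. Arrays with unlike numbers gave -0.15 to 0.07 and -0.17 to 0.11, which lay lower but overlapped these ranges. Between genotypes in effector cells the ranges were -0.03 to 0.14 for same and -0.13 to 0.10 for unlike numbers. The numbers were not taken as pairs, and whether effector and memory samples of 1 number came from 1 animal is not stated in the labels. If they did, KO against WT averaged over both subsets counted each animal more than once, and its SE may be too small. With the replicate block by number 1 of the 9 genes passed for KO against WT averaged over both subsets, Stat3 (adjusted p = 0.0335), among 389 genes in all against 43 without the block.

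Of the 74 list genes, 1 passed for effector KO against effector WT, 0 with only those 8 arrays or all probe sets, 2 with the replicate block by number and 0 to 1 with an array left out. For memory KO against memory WT 1 passed, 2 with array weights, 0 with only those 8 arrays or all probe sets, 3 with the block and 0 to 4 with an array left out. For KO against WT averaged over both subsets 2 passed, and 4 with array weights. In that comparison 0 passed with all probe sets, 17 with the block and 0 to 8 with an array left out. For effector against memory 32 passed in KO cells, 20 with only those 8 arrays and 23 to 36 with an array left out, 22 passed in WT cells, 35 with array weights and 16 to 26 with an array left out, and 43 passed averaged over genotypes, 36 to 47 with an array left out. The causes were not tested.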
